A study of Mus musculus with 12 samples.

Results

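Doxycycline (dox) was the treatment that 2 populations of mouse fibroblasts had in common, and the transcripts that moved with it in both populations are described here. All 6 libraries with dox were compared with all 6 without it, as 1 average effect, with the population and the suffix of the library label held constant, and a gene was kept only where its sign was the same in both populations. All 12 of the 12 libraries of the series entered. Of 13608 genes with enough counts, 76 (0.558%) were kept, 35 (0.257%) higher and 41 (0.301%) lower with dox.

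Each population came from NIH3T3 cells, an established mouse fibroblast line that the labels give as mouse embryonic fibroblasts, infected with a lentivirus and selected with puromycin, with no single clone stated. In one population the dox-inducible promoter drove N-VEGF, and in the other NLS-N-VEGF, which is N-VEGF with the nuclear localization sequence of Cas9 at its N-terminus. Both proteins carried a His tag, and the treated cells had received dox for 16 h. Each population had 3 libraries without and 3 with dox: libraries 1 and 2 with the suffix _120519 and library 2 with the suffix _290419, whose meaning the labels do not state. No group carried an empty vector or lacked the construct, so an effect of dox itself and an effect of the induced protein cannot be told apart. The methods state in general that experiments were repeated, but not whether the libraries of a group came from separate cultures, so the p-values measure the spread between these libraries, which may be technical.

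A Tet-On promoter is silent until dox binds its transactivator, which then drives the gene placed behind it. A long form of vascular endothelial growth factor A (VEGF-A) carries an N-terminal extension, N-VEGF, which is cut off from the secreted growth factor and is known to enter the nucleus in hypoxia. Dox is also an antibiotic that slows protein synthesis on mitochondrial ribosomes, and fibroblasts are known for secreting collagens, proteoglycans and other matrix proteins.

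Total counts were 13862189 to 17316049 per library without dox and 13549331 to 18982127 with dox, so that 3 counts, taken as the limit of detection, were worth 0.158 to 0.221 CPM (counts scaled to a library total of 1000000). All levels below are CPM scaled for library composition. All 10 fibroblast markers were above 1 CPM. Their summed level was 11800 to 14100 CPM without and 11100 to 13000 CPM with dox, and 2 of them, Pdgfra and Dcn, were among the 41 lower genes. Summed markers of endothelial, epithelial, haematopoietic, skeletal muscle and pluripotent cells stayed at or below 10.1 CPM in every library. Those of neural cells, of which 1 of 4 was above 1 CPM, were 20.6 to 25.7 CPM without and 21.3 to 33.1 CPM with dox. The suffix separated the libraries more than dox did: 6303 genes (46.3%) differed between the suffixes in the same edgeR fit, and the first principal component, which split the suffixes, held 58.1% of the variance. The N-VEGF library 1_120519 without dox stood apart from the other 11 along the second component. It had the fewest genes detected (19976) and the smallest mitochondrial share (3.92%).

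The shared effect was small for most genes. The median log2 fold change was 0.48 among the 35 higher genes, a 1.4-fold rise, and −0.5 among the 41 lower genes, against 0.004 over all genes tested, and 9 of the 76 changed by at least 2-fold. Higher with at least a 2-fold change were the adhesion receptor gene Adgrg1, the row of the construct insert, Etl4 and Spon2. Lower by as much were Txnip, Fam135b, Pappa2, Mgp and Islr, the last of which had a mean below 1 CPM. Each of the 35 higher genes was higher in all 6 pairs of libraries that share population, number and suffix, and 38 of the 41 lower genes were lower in all 6. The exceptions were Arrdc4, Pappa2 and Cemip, each of which was not lower in 1 pair. Of all genes tested, 2.73% were higher and 2.96% lower in all 6 pairs. The called genes were chosen on these same libraries, so their agreement between pairs partly follows from the choice. In 16 of the higher genes all 6 dox libraries lay above all 6 others, which held for 0.257% of all genes tested, and in 6 of the lower genes all 6 lay below, which held for 0.125%.

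**Figure D1:**
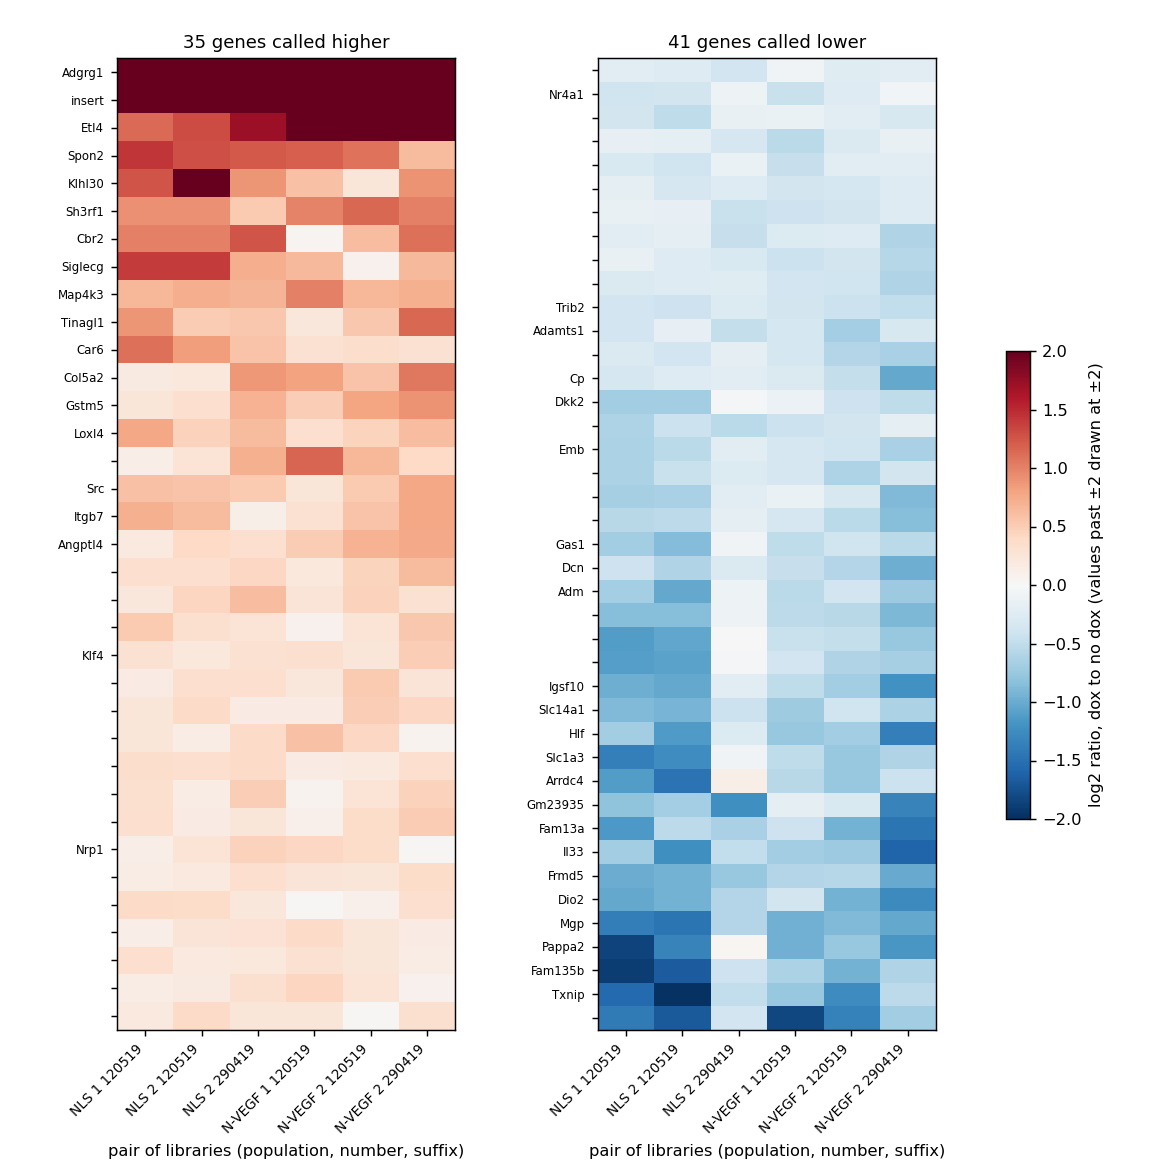
Each row is a gene called with dox and each column a pair of libraries of the same population, number and suffix; the colour is the log2 ratio of dox to no dox, and rows are labelled for the genes chosen by the naming rule. All 35 higher genes are red in all 6 pairs, and 38 of the 41 lower genes are blue in all 6. Of all genes tested, 2.73% were higher and 2.96% lower in all 6 pairs.

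The call of 76 genes used edgeR's quasi-likelihood test with Benjamini-Hochberg adjustment at 0.05. Before adjustment, 1307 genes lay below 0.05. Of the 76, 35 stayed called in each of the 12 fits that left out 1 library. In those fits and in the one without the suffix, a call used the adjusted p alone. Without the N-VEGF library 1_120519 without dox 180 genes were called, all 76 among them, and without the NLS-N-VEGF library 2_290419 with dox 168 were called, 73 of the 76 among them. A model without the suffix called 9 genes, all among the 76, and the common variation between replicates was 14.7% in it against 7.78% with the suffix.

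The insert row, which checks the labels, was read at a low level in every library. It is a single row of 592 positions for both constructs. Without dox it took 0.288 to 0.857 CPM (median 0.424, 5 to 12 counts per library). With dox it took 2.57 to 17.9 CPM (median 7.82). The 2 ranges did not overlap, and the log2 fold change was 4.01 ± 0.26 (SE, adjusted p = 7.14e-08, higher in 6 of 6 pairs). Within the dox libraries the insert was uneven. It was at 2.57, 2.58 and 10.2 CPM in the NLS-N-VEGF libraries 1_120519, 2_120519 and 2_290419, and at 7.56, 8.08 and 17.9 CPM in the same-numbered N-VEGF libraries. In each population the library with the suffix _290419 was the highest.

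Adgrg1 had the largest change of any mouse gene tested. It encodes an adhesion G protein-coupled receptor, also known as GPR56, that binds matrix ligands, and it lies at chr8:94974751-95014217. Its level was 0.863 to 1.5 CPM without dox (median 1.09) and 9.59 to 42.3 CPM with dox (median 22.9), with no overlap. The log2 fold change was 4.21 ± 0.20 (SE, adjusted p = 9.61e-10), which is 18.6-fold. Like the insert, Adgrg1 was lowest in the NLS-N-VEGF dox libraries with the suffix _120519, at 9.59 and 10 CPM, and highest in the N-VEGF dox library 2_290419. It stayed called in all 12 fits that left out a library, with a log2 fold change between 3.91 and 4.49. It was the only one of 9 adhesion receptor genes tested that was called.

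Etl4, a large gene at chr2:19909780-20810713, and Spon2 followed. Etl4 was at 3.51 to 5.57 CPM without dox and at 9.64 to 21.8 CPM with dox (medians 4.29 and 15.7). The log2 fold change was 1.76 ± 0.12 (adjusted p = 7.73e-08). Spon2, at chr5:33198184-33218455, encodes a secreted matrix protein of the spondin family. It rose from 28.7 to 36.9 CPM without dox to 57.1 to 91.2 CPM with dox (medians 34.9 and 77.5), a log2 fold change of 1.15 ± 0.08 (adjusted p = 1e-07). Neither gene overlapped between the groups, and unlike Adgrg1, Spon2 was lowest with dox in the library 2_290419 of each population.

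**Figure D2:**
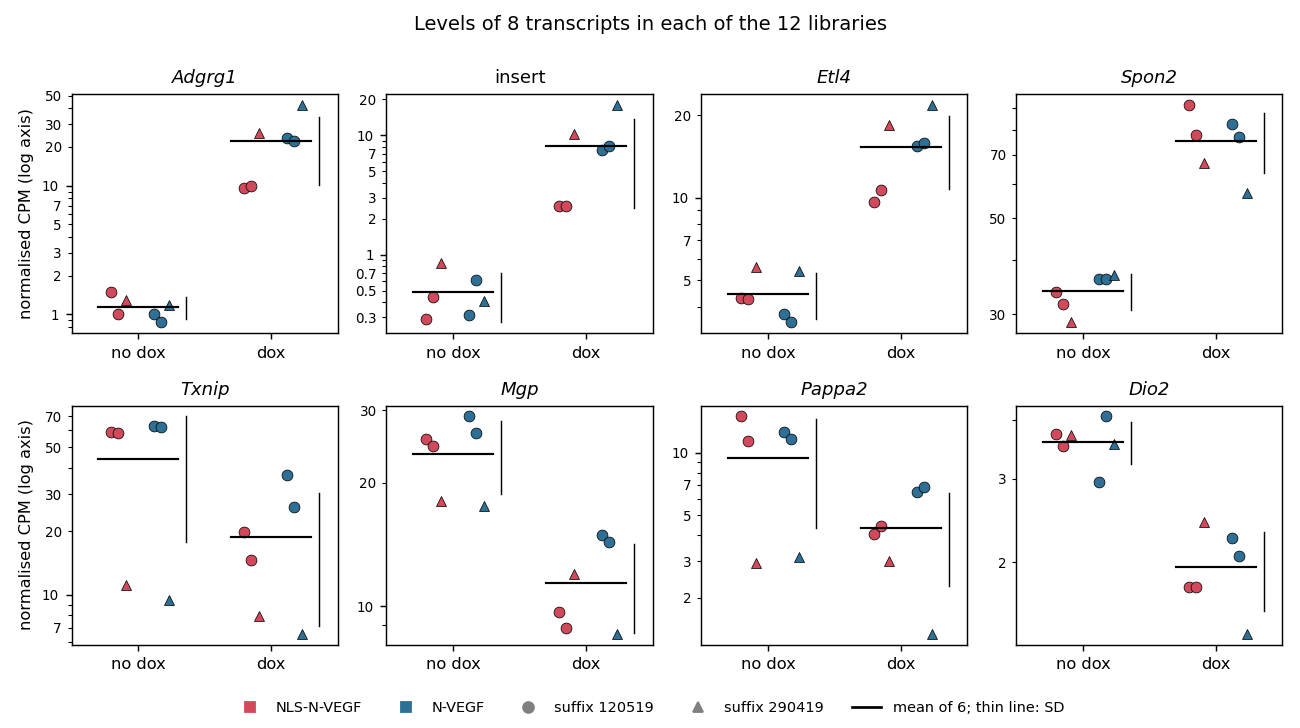
Each panel shows the level of a transcript in the 12 libraries, as normalised CPM on a log axis, without and with dox; colours are populations, shapes are suffixes, the thick line is the mean of 6 and the thin line the SD. Adgrg1, the insert, Etl4 and Spon2 do not overlap between the groups, nor do Mgp and Dio2 below, while Txnip and Pappa2 overlap, with the libraries of suffix _290419 low without dox as well.

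The sequences around the transcription starts are shown for the genes at the ends of the effect, the highest and lowest fold changes among the named genes that the RefSeq table (build GRCm38.p6) holds, where its start lay within 3 kb of the annotated 5′ end. Arrdc4, a relative of Txnip, was added after its values were seen. Each run covers 250 bases before the start and 50 from it, 5′ to 3′ on the gene's strand, 300 bases in all. For Etl4 and Pappa2 the nearest start in the table lay 380133 and 22315 bases away, and they are not shown. Capitals mark every match to the motifs searched, which are named after the sequences.
Adgrg1 (chr8:94976859-94977158, plus strand): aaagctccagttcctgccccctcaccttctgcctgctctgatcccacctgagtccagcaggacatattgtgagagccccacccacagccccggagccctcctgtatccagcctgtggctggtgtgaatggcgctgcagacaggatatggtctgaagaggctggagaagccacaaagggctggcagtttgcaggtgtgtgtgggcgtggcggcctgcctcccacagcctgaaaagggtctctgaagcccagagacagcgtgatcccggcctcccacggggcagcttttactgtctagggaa
Cbr2 (chr11:120731972-120732271, minus strand): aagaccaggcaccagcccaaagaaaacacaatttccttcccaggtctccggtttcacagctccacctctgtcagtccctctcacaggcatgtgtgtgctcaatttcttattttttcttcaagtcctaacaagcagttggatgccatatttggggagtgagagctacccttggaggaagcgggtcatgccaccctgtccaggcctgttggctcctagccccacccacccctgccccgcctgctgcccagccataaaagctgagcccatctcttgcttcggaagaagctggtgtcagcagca
Txnip (chr3:96557707-96558006, plus strand): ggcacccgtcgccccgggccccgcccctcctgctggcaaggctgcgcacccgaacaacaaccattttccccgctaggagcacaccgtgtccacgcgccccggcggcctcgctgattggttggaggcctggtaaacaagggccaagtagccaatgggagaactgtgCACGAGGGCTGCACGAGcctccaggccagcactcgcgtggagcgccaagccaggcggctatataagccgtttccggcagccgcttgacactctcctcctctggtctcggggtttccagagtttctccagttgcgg
Dio2 (chr12:90738989-90739288, minus strand): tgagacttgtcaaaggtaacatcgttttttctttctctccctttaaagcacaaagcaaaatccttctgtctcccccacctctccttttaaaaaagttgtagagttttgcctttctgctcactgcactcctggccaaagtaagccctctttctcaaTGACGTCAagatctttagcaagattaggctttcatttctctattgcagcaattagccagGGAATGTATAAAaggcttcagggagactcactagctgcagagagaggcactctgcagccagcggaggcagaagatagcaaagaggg
Arrdc4 (chr7:68749189-68749488, minus strand): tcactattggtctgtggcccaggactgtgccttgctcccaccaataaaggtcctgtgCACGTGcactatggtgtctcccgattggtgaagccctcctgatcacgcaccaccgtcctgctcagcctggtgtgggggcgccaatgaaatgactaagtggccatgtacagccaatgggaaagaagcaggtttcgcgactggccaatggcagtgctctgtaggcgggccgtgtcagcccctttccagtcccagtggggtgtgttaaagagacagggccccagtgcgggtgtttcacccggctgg

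Motifs were searched on both strands in 1 promoter of each of 9867 tested genes, 26 of them called higher and 33 called lower. They were the E box CACGTG, the core of the hypoxia response element ACGTG, which overlaps the E box, the core of the cyclic AMP response element TGACG, the AP-1 site TGANTCA, the TEAD site GGAATG, the TATA box TATAAA and the paired boxes of the carbohydrate response element, searched as CACGNG, 5 bases of any kind and CACGNG again. The paired boxes were found in 10 promoters (0.101%), and 1 of them was that of Txnip, where the first base lies at −85 from the start. The Arrdc4 promoter held the E box, and with it the hypoxia core, at −193. The E box stood in 998 promoters (10.1%), in 3 of 33 of lower genes and in 2 of 26 of higher genes. The Dio2 promoter held the cyclic AMP core in both directions, at −95 and −92, the TEAD site at −36 and the TATA box at −30. The TATA box stood in 7 of 33 promoters of lower genes (21.2%), in 2 of 26 of higher genes (7.69%) and in 714 of all (7.24%). The cyclic AMP core stood in 11 of 33, 4 of 26 and 32.2%, and the hypoxia core in 7 of 33, 3 of 26 and 25.9%, in the same order. The TEAD site stood in 8 of 33, 4 of 26 and 11.8%, and the AP-1 site in 2 of 33, 2 of 26 and 4.87%. The promoters of Adgrg1 and Cbr2 held no match, and these shares were not tested.

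Among the other higher genes, Sh3rf1, also called POSH, a scaffold of the JNK pathway, rose from 14.7 to 20.6 CPM to 24.8 to 42.2 CPM (medians 18.6 and 35.1), with a log2 fold change of 0.93 ± 0.07 (adjusted p = 2.79e-07). Map4k3, a kinase upstream of JNK, rose from 40 to 50.1 CPM to 69.9 to 80.5 CPM, with a log2 fold change of 0.74 ± 0.06 (adjusted p = 2.77e-07). The SD of Map4k3 was 3.36 CPM over the 6 libraries without dox (mean 45.3 CPM) and 3.76 CPM over the 6 with dox (mean 75.6 CPM). Src, the founding member of the Src family of tyrosine kinases, was at 44.4 to 61.5 CPM without and 67.1 to 75.6 CPM with dox, a log2 fold change of 0.53 ± 0.06 (adjusted p = 0.000272). All 3 were apart between the groups in every library.

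Col5a2, a chain of the fibril-forming collagen V, went from 169 to 280 CPM without dox (median 231) to 260 to 569 CPM with dox (median 289), a log2 fold change of 0.61 ± 0.09 (adjusted p = 0.00296). Its 2 dox libraries with suffix _290419, at 511 and 569 CPM, lay above all other libraries. Loxl4, a lysyl oxidase that crosslinks collagen, had a log2 fold change of 0.55 ± 0.08, and Tinagl1, a secreted protein of basement membranes, one of 0.66 ± 0.09 (adjusted p = 0.00147 and 0.00163). Angptl4, a secreted inhibitor of lipoprotein lipase, was at 57.2 to 85.9 CPM without and 90.2 to 118 CPM with dox, with a log2 fold change of 0.48 ± 0.06 (adjusted p = 0.000936).

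Itgb7, an integrin beta chain, had a log2 fold change of 0.52 ± 0.08 (adjusted p = 0.00474). Gstm5, a glutathione transferase whose near relatives could share its reads and of which an antisense gene covers 13.9%, had 0.57 ± 0.08 (adjusted p = 0.000757). Klf4, a transcription factor of the zinc finger family, had 0.31 ± 0.05 (adjusted p = 0.00403). Klhl30 (0.98 ± 0.20), Cbr2, a carbonyl reductase (0.82 ± 0.16), Siglecg, a receptor that binds sialic acid (0.80 ± 0.16), Car6, a secreted carbonic anhydrase (0.62 ± 0.11), and Nrp1 were also called. Their calls were less stable: with 1 library left out they were called in 5, 6, 7, 10 and 5 of 12 fits, and the largest adjusted p in those fits was 0.113, 0.0917, 0.109, 0.0613 and 0.141. Siglecg was at 8.5 and 11.1 CPM without dox in the libraries with suffix _290419 and at no more than 3.2 CPM in those with suffix _120519, so that its groups overlapped although it rose in 6 of 6 pairs.

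Among the lower genes Islr, a protein with leucine-rich repeats, had the lowest fold change, at very low counts. It was at 0.291 to 2.07 CPM without and 0.134 to 0.696 CPM with dox (medians 1.24 and 0.362), a log2 fold change of −1.53 ± 0.27 (adjusted p = 0.00878). Txnip came next. It lies at chr3:96557957-96561883 and encodes thioredoxin-interacting protein, an arrestin relative that restrains glucose uptake. Its level was 9.44 to 62.7 CPM without dox (median 58.6) and 6.56 to 37 CPM with dox (median 17.3). In the libraries with suffix _120519 it went from 58.2, 59.1, 62.5 and 62.7 CPM to 14.7, 19.9, 26.1 and 37 CPM, and in those with suffix _290419 from 9.44 and 11.2 CPM to 6.56 and 7.93 CPM. The log2 fold change was −1.15 ± 0.16 (adjusted p = 0.00124). Arrdc4, another arrestin relative under the same glucose-sensing factors, was at 3.64 to 17.4 CPM without and 3.75 to 10.9 CPM with dox. The log2 fold change was −0.78 ± 0.13 (adjusted p = 0.00716), and it was higher with dox in the NLS-N-VEGF pair 2_290419. An antisense gene, Gm15441, covers 19.4% of the exon bases of Txnip, and the strand setting of the counting is not given in the sources used here.

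Mgp and Dcn were the lower members of the list of secreted matrix proteins. Mgp, at chr6:136872435-136875823, encodes matrix Gla protein, an inhibitor of calcification. It fell from 17.5 to 29 CPM (median 25.1) to 8.57 to 14.9 CPM (median 10.8) without overlap, with a log2 fold change of −1.03 ± 0.11 (adjusted p = 9.38e-05). Dcn, the proteoglycan decorin, was at 65.9 to 81.6 CPM without and 33.3 to 56.9 CPM with dox, a log2 fold change of −0.54 ± 0.09 (adjusted p = 0.00593). As Dcn and Pdgfra, the receptor for platelet-derived growth factor (log2 fold change −0.49 ± 0.08, adjusted p = 0.00376), mark fibroblasts, fewer cells of a type and less RNA per cell cannot be told apart in these bulk libraries. The other 8 fibroblast markers were not called, and 4 of the 10 had a positive log2 fold change.

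Pappa2, a protease that frees insulin-like growth factors from their binding proteins, was at 2.93 to 15 CPM without and 1.34 to 6.83 CPM with dox, with a log2 fold change of −1.06 ± 0.17 (adjusted p = 0.00503). Its level did not drop in the NLS-N-VEGF pair 2_290419 (2.93 and 3.02 CPM). Il33, a cytokine held in the nucleus until release, had −0.82 ± 0.14 and Adm, the vasodilator adrenomedullin, −0.57 ± 0.10 (adjusted p = 0.00878 for both). Adamts1, a matrix protease, had −0.40 ± 0.06 (adjusted p = 0.00168). Dkk2, a Wnt modulator, had −0.42 ± 0.08, Igsf10 −0.71 ± 0.15 and Cp, the ferroxidase ceruloplasmin, −0.42 ± 0.09. These last 3 were called in 9, 4 and 5 of the 12 fits that left out a library, with adjusted p of up to 0.0602, 0.153 and 0.106.

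Lower genes with other roles follow. Dio2, the deiodinase that activates thyroid hormone, fell from 2.95 to 4.07 CPM to 1.41 to 2.43 CPM without overlap, with a log2 fold change of −0.88 ± 0.15 (adjusted p = 0.00807). It did not differ beyond the spread between the suffixes (adjusted p = 0.986 in edgeR). Slc1a3, a glutamate transporter, had a log2 fold change of −0.78 ± 0.12 (adjusted p = 0.00403), and Hlf, a transcription factor of the circadian output, one of −0.77 ± 0.13 (adjusted p = 0.00716). Fam135b had −1.11 ± 0.19 (adjusted p = 0.00639) and Frmd5 −0.83 ± 0.15 (adjusted p = 0.0109), both at under 7 CPM in every library. Trib2, a pseudokinase, had −0.39 ± 0.05 and Emb, a cell adhesion protein, −0.45 ± 0.06 (adjusted p = 0.000757 and 0.00147).

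Fam13a, Slc14a1, a urea transporter, Gas1, a co-receptor of the Hedgehog pathway, and Nr4a1, an immediate early nuclear receptor, were also called, with less certainty. Their log2 fold changes were −0.82 ± 0.18, −0.71 ± 0.14, −0.50 ± 0.10 and −0.27 ± 0.06. They were called in 4, 6, 4 and 4 of the 12 fits that left out a library, with adjusted p of up to 0.153, 0.103, 0.124 and 0.128. Under the block of number and suffix the call of Fam13a ended (adjusted p = 0.0515). Gm23935, annotated as a miRNA gene of 57 bases, took 19.2 to 89.3 CPM without and 12.1 to 35.2 CPM with dox (log2 fold change −0.81 ± 0.13, adjusted p = 0.00568), and its highest values in each group were in the libraries with suffix _290419. Antisense genes cover 19.9% of the exon bases of Gas1, 19.8% of those of Igsf10 and 34.9% of those of Dact1, another lower gene.

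The other 16 higher genes had log2 fold changes from 0.235 (Cspg4) to 0.532 (Msln), with adjusted p from 0.00296 to 0.049. Among them are the guidance receptor Plxna2, the proteoglycan Cspg4 and the tetraspanin Tspan9 at the cell surface, the transporters Slc29a3 and Slc16a13, and the enzymes Ephx1, Fads3 and Tpst2. Runx2, a transcription factor of bone, Nek7, a kinase, Wfs1, Msln, Arhgap29, Ankrd28 and Pmp22 were also among them. The other 16 lower genes had log2 fold changes from −0.23 (Sat1) to −0.652 (Gm43618), with adjusted p from 0.00639 to 0.0461. They include the secreted proteins Cst3, a protease inhibitor, and Tnfrsf11b, the decoy receptor osteoprotegerin, the hyaluronan-degrading Cemip, the prostaglandin receptor Ptgfr, Rgs2, which damps G protein signalling, and the peroxiredoxin Prdx4. Plpp3, Gas2, Cdk20, Phactr1, Capn6, Sat1, Papss1, Dact1 and the provisional gene models Gm44873 and Gm43618 complete them. Ptgfr and Gm43618 overlap on opposite strands, over 4.9% and 9.5% of their exon bases, and may share reads.

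The effect was then set side by side in the populations. By its own test, 15 genes (0.11%) passed in the NLS-N-VEGF population and 13 (0.0955%) in the N-VEGF population, with all 12 libraries in 1 fit. Of the 76 genes of the pooled effect, 57 were called in neither population alone. Agreement in sign was a condition for the 76, and over all genes tested the sign agreed in 59.4%. The median log2 fold change of the higher genes was 0.37 in NLS-N-VEGF and 0.44 in N-VEGF cells, and that of the lower genes was −0.51 and −0.54.

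The test of the difference between the populations called 0 genes in edgeR (0%), with 474 at an unadjusted p under 0.05, and 0 with the replicate block, with 464. Among the 76 genes, 10 had an unadjusted p under 0.05 for the difference, and the smallest adjusted p was 1. Adgrg1 had the smallest unadjusted p of these. Its log2 fold change was 3.47 ± 0.22 in NLS-N-VEGF and 4.86 ± 0.21 in N-VEGF cells, a difference of −1.39 ± 0.37 (unadjusted p = 0.00181, adjusted p = 1). Etl4 (1.43 and 2.08) and the insert (3.19 and 4.65) were also larger in N-VEGF cells, with adjusted p = 1 for both differences. Spon2 (1.32 and 0.97) and Txnip (−1.44 and −0.89) were larger in size in NLS-N-VEGF cells, also with adjusted p = 1.

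**Figure D3:**
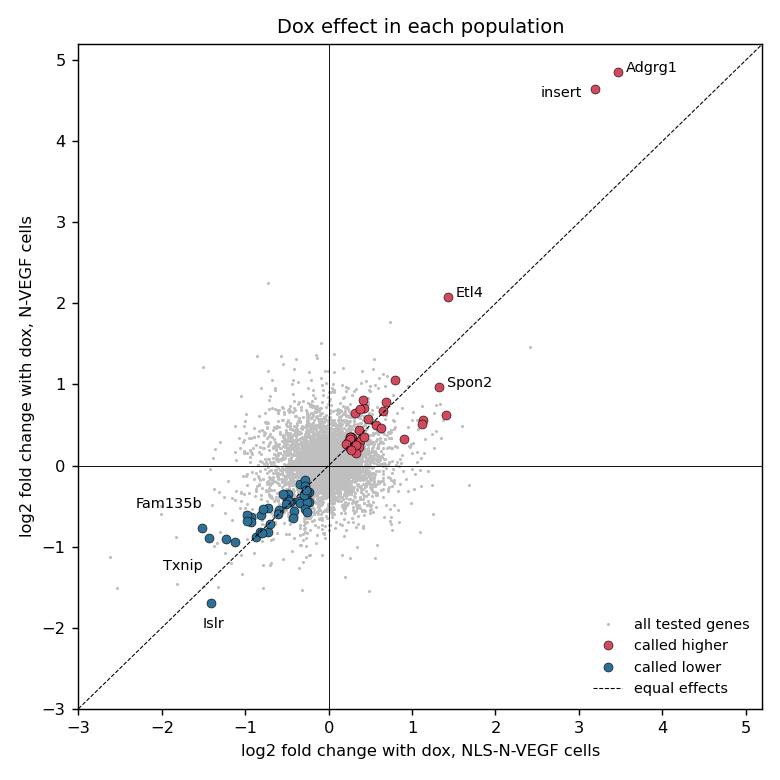
Each point is a gene, at its log2 fold change with dox in NLS-N-VEGF cells (horizontal) and in N-VEGF cells (vertical), and the dashed line marks equal effects. The called genes lie in the upper right and lower left, as the choice of genes requires; Adgrg1, the insert and Etl4 lie above the line.

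The effect was also taken within each suffix, since the suffix separated the libraries. All 35 higher and all 41 lower genes kept their sign in both the 8 libraries with suffix _120519 and the 4 with suffix _290419. The median of the higher genes was 0.43 and 0.48, and that of the lower genes −0.5 and −0.4. As the genes were chosen on these same libraries, the agreement in sign partly follows from the choice. Its share over all genes was not taken. The test of the difference called 0 genes (0%) in edgeR, with 949 at an unadjusted p under 0.05, and 0 in DESeq2, with 635. The smallest adjusted p among the 76 genes was 0.707. Among genes with an unadjusted p under 0.05 for this difference, Txnip had −1.33 with suffix _120519 and −0.49 with suffix _290419 (unadjusted p = 0.024), Arrdc4 −0.96 and −0.16 (0.00898), and Slc1a3 −0.95 and −0.33 (0.0176). Gm23935 had the opposite order, −0.50 and −1.29 (0.000981), and so did Col5a2 among the higher genes, 0.43 and 0.96 (0.00322).

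**Figure D4:**
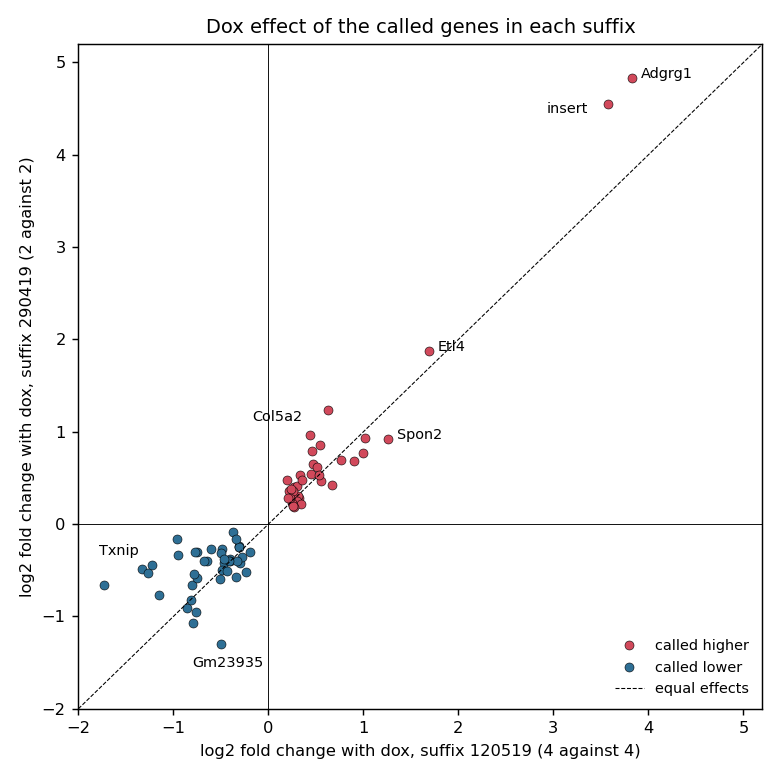
Each point is a called gene, at its log2 fold change with dox in the libraries with suffix _120519 (horizontal, 4 against 4) and with suffix _290419 (vertical, 2 against 2); the dashed line marks equal effects. All 76 points, which were chosen on these same libraries, keep their sign. Txnip lies above the line, nearer to 0 with suffix _290419, while Gm23935 lies below it.

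The level of the lower genes itself moved with the suffix. Of the 41 lower genes, 37 differed between the suffixes, of which 5 were higher with suffix _290419. Of the 35 higher genes, 24 differed, of which 18 were higher with suffix _290419. Over all genes 46.3% differed. The part of this in the dox effect was not tested beyond the fits within each suffix.

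Of 28 gene lists of pathways and organelles, 12 held a called gene, and none held more than 3. Of 686 tested genes in any of them 17 (2.48%) were called, against 0.558% of all genes tested, and since the lists were chosen with results of these data known, nothing is read from that share. The list of secreted matrix proteins had 20 tested members, of which Spon2 was called higher and Mgp and Dcn lower. Its median log2 fold change was −0.18, the lowest of the lists, against 0.004 over all genes, and 15 of its members were negative. The collagens (26 tested, median −0.02) had Col5a2 alone, the matrix proteases and inhibitors (21 tested, median −0.03) Adamts1, and the integrins and laminins (27 tested, median 0.04) Itgb7. The MondoA list (9 tested, median −0.03) holds genes switched on by glucose and also the glucose-sensing factors Mlxip and Mlx themselves. Txnip and Arrdc4 were called in it, and the other 7 members lay between −0.10 and 0.09.

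**Figure D5:**
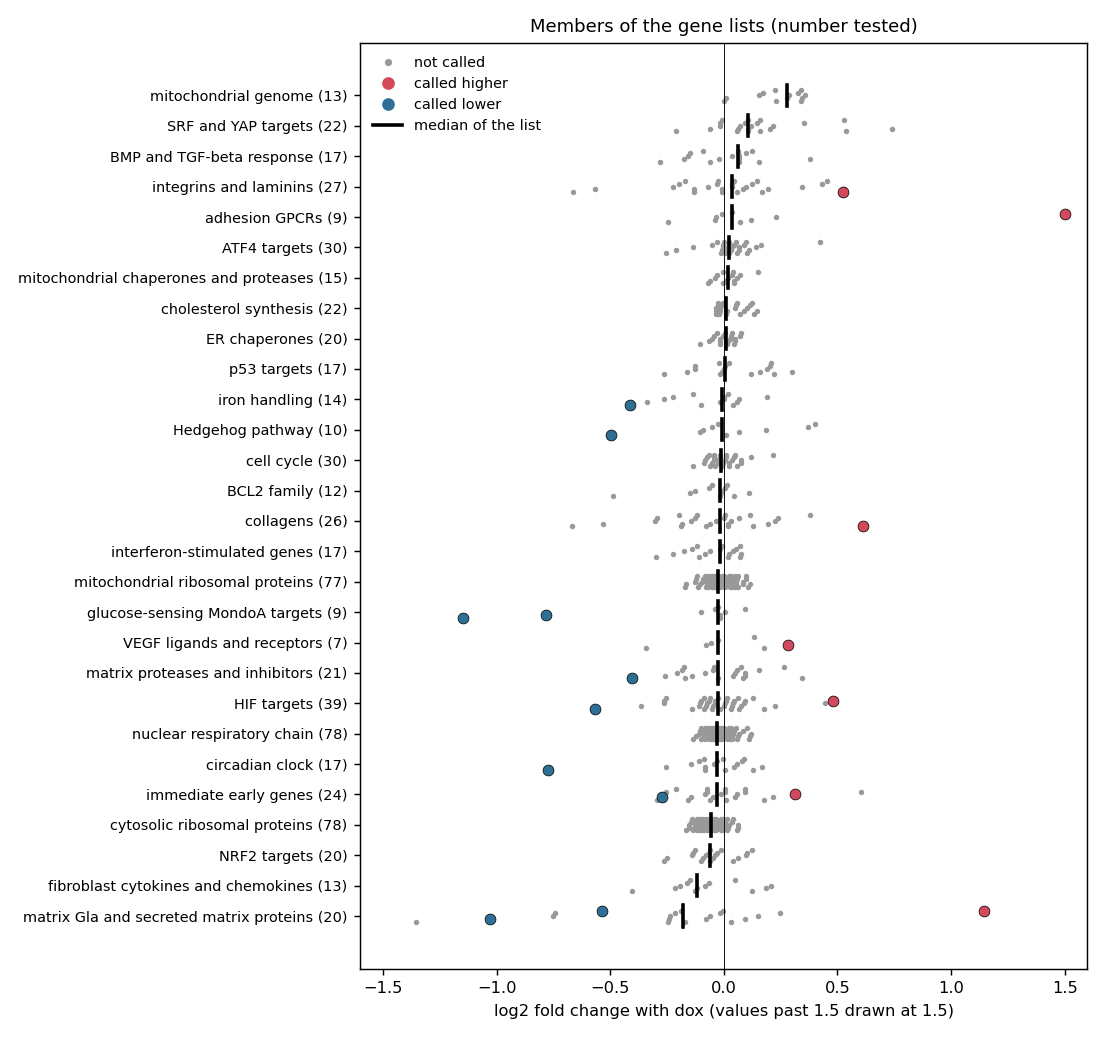
Each point is a tested member of a list at its log2 fold change with dox, red or blue where called, and the bar is the median of the list; the number tested stands beside each name. The medians lie between −0.18 for the secreted matrix proteins and 0.28 for the mitochondrial genome.

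The 13 protein-coding genes of the mitochondrial genome had the highest median, 0.28, and all 13 were positive, with 0 called in edgeR and 8 at an unadjusted p under 0.05. DESeq2 called 1 of the 13 and limma-voom 0. The gene with the largest difference, mt-Nd4, a subunit of complex I, was at 2000 to 3130 CPM without and 3090 to 4120 CPM with dox (log2 fold change 0.36 ± 0.10, adjusted p = 0.156). With the 6 pairs as a block, mt-Nd4 was called (adjusted p = 0.0365). mt-Co1 and mt-Co3, subunits of complex IV, were at 0.01 and 0.001. The mitochondrial share of all counts was 3.92% to 5.26% without and 5% to 6.17% with dox. Both the 3.92% and the 2000 CPM of mt-Nd4 came from the N-VEGF library 1_120519 without dox, which stood apart above. In its pair mt-Nd4 had a log2 ratio of 0.746, the largest of the 6. The median of the 13 genes was 0.32 with suffix _120519 and 0.127 with suffix _290419. Their nuclear partners had medians near 0: −0.03 for 78 genes of the respiratory chain, −0.02 for 77 mitochondrial ribosomal proteins and 0.02 for 15 mitochondrial chaperones and proteases, with 0 called in each by edgeR, DESeq2 and limma-voom and 0, 4 and 0 at an unadjusted p under 0.05. The cytosolic ribosomal proteins (78 tested) had a median of −0.06, with 68 negative, 0 called and 1 at an unadjusted p under 0.05. ATF4 targets, which respond to mitochondrial stress, had a median of 0.02 over 30 genes and 0 called, with 2 at an unadjusted p under 0.05.

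VEGF genes and hypoxia targets moved little in the pooled effect. Of 7 VEGF ligands and receptors tested, Nrp1, a co-receptor of VEGF-A, was called, at 54.7 to 66.7 CPM without and 59.8 to 81.9 CPM with dox (log2 fold change 0.28 ± 0.06, adjusted p = 0.0264). Vegfa was at 74.1 to 92.5 CPM without and 73.3 to 130 CPM with dox, with a log2 fold change of 0.18 ± 0.08 (adjusted p = 0.47), and was higher with dox in 3 of 6 pairs. By population it was 0.32 ± 0.10 in NLS-N-VEGF and 0.03 ± 0.10 in N-VEGF cells (unadjusted p = 0.0632 for the difference in edgeR). The NLS-N-VEGF pairs 1_120519, 2_120519 and 2_290419 stood at 0.556, 0.466 and −0.092. As the insert derives from Vegfa, the rows of the insert and of Vegfa may share reads. Hif1a, the oxygen-sensitive transcription factor, was at 141 to 200 CPM without and 130 to 241 CPM with dox (0.10 ± 0.06, adjusted p = 0.588). Its log2 fold change was 0.20 ± 0.08 in NLS-N-VEGF and 0.01 ± 0.08 in N-VEGF cells (unadjusted p = 0.0951 for the difference in edgeR). For neither gene did the difference between populations pass the correction. Of 39 hypoxia-inducible factor targets 17 were positive and 22 negative, the median was −0.03, and the 2 called moved apart: Angptl4 was higher and Adm lower.

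The remaining lists had 0 or 1 called gene on each side. Targets of SRF and YAP, which include actin genes, had 17 of 22 members positive, a median of 0.11 and 0 called in edgeR, 8 at an unadjusted p under 0.05 and 2 called in DESeq2, with Acta2, smooth muscle actin, just outside the threshold (log2 fold change 0.54 ± 0.12, adjusted p = 0.0525). Acta2 was called under the block of number and suffix (adjusted p = 0.0391) and under the block of 6 pairs (adjusted p = 0.00105). The immediate early genes had Klf4 higher and Nr4a1 lower among 24, the Hedgehog list Gas1 lower among 10, the clock list Hlf among 17 and the iron list Cp among 14. The lists of BMP and TGF-beta response, cell cycle, p53 targets, the BCL2 family, interferon-stimulated genes, fibroblast cytokines, NRF2 targets, cholesterol synthesis and ER chaperones had 0 called in edgeR and 0 to 6 at an unadjusted p under 0.05. DESeq2 called 1 gene in these, in the list of fibroblast cytokines, and their medians lay between −0.12 and 0.06. At the threshold itself, Dact1 (adjusted p = 0.0461), Pmp22 (0.0469) and Cspg4 (0.049) lay just inside, and Sema4b, Nbeal1 (both 0.0525) and Acta2 just outside. Under the block of number and suffix Dact1 (adjusted p = 0.0581), Cspg4 (0.0584) and Runx2 (0.0504) were not called.

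From these samples the study states that it kept genes changed at least 2-fold in NLS-N-VEGF cells with dox. It left out those induced in N-VEGF cells with dox. The pooled effect has no fold threshold and needs the same sign in both populations, so the criteria differ. In the NLS-N-VEGF contrast fitted here, the study's 123 genes listed as higher had a median log2 fold change of 0.28. Its 32 genes listed as lower had one of 0.26, and both medians were under 2-fold. The reason was not tested. Of the study's genes, 23 of 123 listed as higher were called higher in the pooled effect and 9 were called lower. Of the 32 listed as lower, 4 were called lower and 2 higher. Over all genes tested, 0.257% were called higher and 0.301% lower. Adgrg1, Etl4, Spon2, Map4k3, Sh3rf1 and Src were among the 23, with the same sign in N-VEGF cells. Txnip, Arrdc4 and Adm were among the 9. By sign alone, 100 of the 123 listed as higher were positive in the pooled effect. So were 23 of the 32 listed as lower, with a median log2 fold change of 0.16. Of all 13608 genes tested, 7026 were positive. Of 17 genes that the text of the study names for angiogenesis, survival and the cytoskeleton, all 17 were positive in the pooled effect. Adgrg1, Sh3rf1, Src and Nrp1 were called. The median of the 17 was 0.305 in NLS-N-VEGF and 0.149 in N-VEGF cells, where Msn was at −0.024 and Hif1a at 0.008. Nrp1 and Sgk1 also stand on the study's list of lower genes, although its text names both among upregulated genes. Nrp1 is therefore also among the 2 called higher from the lower list. These lists were chosen on the same samples and are not independent evidence of direction.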

How the data were processed

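RNA was sequenced as single reads from 12 libraries. The deposited values were raw counts per gene, which the authors made by trimming with Trim Galore and cutadapt 1.10, aligning to GRCm38 with TopHat2 2.1.0 and Bowtie2 2.2.6 and counting with HTSeq 0.6.1, per the labels and the submitters' processing notes. The strand option of the counting is not given in the sources used here.

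The counts were fitted with edgeR 4.0.16 in R 4.3.3 (trimmed mean of M-values scaling, quasi-likelihood test, ~ population + suffix + dox). Of 54447 rows, 13608 passed the filter on low counts. Genes with a Benjamini-Hochberg adjusted p under 0.05 and the same sign in both populations were called. For the counts of calls in alternative fits, the adjusted p alone was used. Fold changes are given as log2 with the standard error. The groups came from the labels. The members and lists were chosen with earlier results of these data known. Named genes were the insert, Vegfa, Hif1a, the 14 highest and 14 lowest fold changes at a mean of at least 1 CPM, up to 4 called members of each list and, where none was called, up to 2 with the smallest p. Other called genes were named after their values were seen, and 1 called gene is not reported here by name.

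The fit was tested on simulated data. DESeq2 1.42.0, limma 3.58.1, other scaling, filters and covariates, each suffix alone and leaving out each library were tried. No pair of libraries of a group agreed within sampling noise. Libraries were compared as deviations from the mean of their group, which holds both suffixes. Same-labelled libraries (number and suffix) deviated together in all 18 pairs of libraries, with correlations over 12058 genes of 0.32 to 0.79 (mean 0.54). Different-labelled libraries stood at −0.7 to 0.6 (mean −0.23). The difference between libraries 1 and 2 of suffix _120519 correlated at 0.04 on average. With the suffix fixed in this way, sharing a number went with little correlation. Counts of total reads limit precision as given by the floor of 3 counts, which covers counting error only.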

Additional observations from a re-analysis of the deposited data

Results flagged for a closer look

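In 7 of 96 groups of 6 libraries, 1 library lay far from the others on the log2 scale, its gap to the nearest being more than 0.625 of the whole range. Chance gives this in about 1 in 20 groups of 6 like values. These groups mix populations and suffixes, and many of the genes were chosen for their dox effect. That rate therefore need not hold here. In 5 of the 7 it was the N-VEGF library 2_290419 with dox, which was lowest for Cp (0.757 of the range), Igsf10 (0.736), Emb (0.681), Dcn (0.667) and Nrp1 (0.648). The N-VEGF library 1_120519 without dox was highest for Src (0.638), and the NLS-N-VEGF library 2_120519 without dox was lowest for Klhl30 (0.647).

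Among uncalled genes, the dox effect had opposite signs in the suffixes, in every pair, for Atp5d, a subunit of ATP synthase, and Sc5d, an enzyme of cholesterol synthesis. The effect with suffix _120519 less that with suffix _290419 was −0.288 for Atp5d (unadjusted p = 0.0407, adjusted p = 0.708 in edgeR) and 0.327 for Sc5d (unadjusted p = 0.00544, adjusted p = 0.707), so neither difference passed the correction.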

How the results depend on the processing

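All 76 called genes, which were chosen on these same libraries, kept their sign under every setting in which they were tested. In the reported fit the condition of the same sign removed no gene. In the alternative fits here, a call used the adjusted p alone. By this rule 132 genes (63 higher, 69 lower) were called with DESeq2 and 287 (116 and 171) with no filter beyond 1 count. With no suffix in the model 9 (8 and 1) were called. At least a 2-fold change left 9 (4 and 5) in the reported fit. Of the 76, DESeq2 called 73 and the fit without the filter 76. With suffix _120519 only, 92 genes were called, 21 higher and 71 lower, and with suffix _290419 only, 107 were called, 59 higher and 48 lower. The higher share was 46.1% in the reported fit, 22.8% and 55.1% with either suffix and 88.9% without the suffix in the model. The cause was not tested. A fit with 1 mean per population and suffix called 69 lower genes and 112 in all. Limma-voom, size-factor scaling, a floor of 10 counts and group means gave 82, 73, 68 and 73 calls.

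Same-labelled libraries were paired in 2 ways. The replicate block of number and suffix called 74 genes, 71 of them among the 76, and the block of 6 pairs called 103, with 63 lower, 73 of them among the 76. The first ended the calls of 5 genes, among them Fam13a (adjusted p = 0.0515), Runx2 (0.0504), Dact1 (0.0581) and Cspg4 (0.0584), and the second ended 3, among them Dact1 (0.0709) and Cspg4 (0.0586). Acta2 was gained under both (adjusted p = 0.0391 and 0.00105) and mt-Nd4 under the second (adjusted p = 0.0365).

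With 1 library left out, 42 to 180 genes were called, 18 to 94 higher and 22 to 113 lower. The number fell to 42, 47 and 42 without the NLS-N-VEGF libraries 1_120519, 2_120519 and 2_290419 without dox, and to 46 and 42 without 1_120519 and 2_120519 with dox. It was 168 without NLS-N-VEGF 2_290419 with dox and 180 without N-VEGF 1_120519 without dox. Without N-VEGF 2_290419 without dox, 67 genes were lower. In these fits 41 of the 76 lost the call at least once. Genes near 1 CPM rest on few counts, as 3 counts are 0.158 to 0.221 CPM.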
